A study of Mus musculus with 6 samples.

Results

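The Schlafen family is a group of related mouse genes that lie side by side on chromosome 11. Its members here were the 9 genes Slfn1, Slfn2, Slfn3, Slfn4, Slfn5, Slfn8, Slfn9, Slfn10-ps and Slfn14, found by their symbols among the 17060 genes listed in the deposited tables. All 9 were listed in every culture, and all 9 had enough reads to pass the filter on low counts. They were chosen by name, with the difference of their TMM-scaled expected counts between DMSO and NUP-17d already known, so that difference is given below as a description and no test of it is used as support.

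Schlafen proteins share an N-terminal core that resembles a nuclease fold, and several of them bind or cut tRNA or ribosomal RNA and so limit protein synthesis. The short members (Slfn1 and Slfn2) consist of little more than this core, the intermediate members (Slfn3 and Slfn4) carry a further middle domain, and the long members (Slfn5, Slfn8, Slfn9 and Slfn14) add a helicase-like C-terminal part. Most members are known from T cells and macrophages, where interferon and activation change their expression, whereas Slfn14 is known from red cell and platelet precursors and encodes a ribosome-associated endoribonuclease. Slfn10-ps carries a pseudogene's name.

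WT mouse BM was depleted of lineage-positive cells, which leaves mainly stem and progenitor cells, and the rest was grown in EPO-containing medium, in which erythroblasts form. The cells received the Plek2 inhibitor NUP-17d at 10 μM or its vehicle DMSO for 48 hours, with 3 cultures in each group, all from WT animals. The labels give no strain, age or sex and do not say whether the cultures came from separate animals. The errors below therefore rest only on the spread between these cultures. Each SE of a log2 fold change comes from a fit over all genes, which shares that spread over genes. The study's methods describe a stranded Illumina library, whereas the sample records describe poly(A) selection, random priming and DNBseq single-end reads of 50 bases. The expected counts (the authors' estimates of reads per gene) summed to 20278433 to 20419018 in the DMSO cultures and to 20076409 to 20170197 in the NUP-17d cultures. Hemoglobin genes held 18.3% to 20.3% of the counts in the DMSO cultures and 11.8% to 13.1% in the NUP-17d cultures. Because of that difference in composition, levels were compared as TMM-normalized CPM, that is, counts relative to a standard library total (CPM) after scaling each culture by a trimmed mean over genes. Scaling by library totals alone added 0.27 to the log2 fold change of every member and moved the median of all tested genes from 0.014 to 0.28. Members are therefore described relative to the other genes, and the sign of each is given under both scalings. The part of hemoglobin genes in the shift of 0.27 was not tested. These were bulk samples, in which fewer cells of one type and less RNA per cell cannot be told apart.

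The 12 erythroid markers were all present, and their summed level was 24831 to 26651 CPM in the DMSO cultures. Markers of other cell types were present as well. The 14 monocyte and macrophage markers summed to 4048 to 4376 CPM and the 14 neutrophil markers to 4304 to 4466 CPM in the DMSO cultures. The 12 T and NK cell markers summed to 49.2 to 52.0 CPM, most of it from Il7r, and Cd3d and Cd3e averaged 0.46 and 0.47 CPM.

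The 9 members span chr11:82951349-83286726 (335.4 kb, GRCm38, RefSeq annotation), in the order Slfn5, Slfn9, Slfn8, Slfn10-ps, Slfn2, Slfn1, Slfn4, Slfn3 and Slfn14. Slfn14 (chr11:83275110-83286726, minus strand) stands at one end, 60.0 kb from Slfn3 (chr11:83191330-83215154, plus strand). The promoters of 8 members were matched in RefSeq (GRCm38.p6), and 7 are shown because groups of them share motifs. The entry of Slfn5 starts inside the annotated span of that gene, so its bases were searched but are not shown. The Slfn4 entry also starts inside its gene's annotated span, which begins at 83175172. The end of its line therefore lies within that span. Each line holds the 160 bases before the start site of its entry on the gene's own strand, and capitals mark a matched motif.
Slfn14, chr11:83286727-83286886, minus strand: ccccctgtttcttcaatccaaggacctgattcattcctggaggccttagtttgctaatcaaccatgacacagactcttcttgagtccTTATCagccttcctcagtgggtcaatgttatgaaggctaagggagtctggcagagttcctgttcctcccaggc
Slfn1, chr11:83116660-83116819, plus strand: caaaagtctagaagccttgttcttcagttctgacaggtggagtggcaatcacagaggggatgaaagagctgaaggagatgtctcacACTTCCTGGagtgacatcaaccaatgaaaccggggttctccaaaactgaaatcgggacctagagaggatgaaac
Slfn2, chr11:83064952-83065111, plus strand: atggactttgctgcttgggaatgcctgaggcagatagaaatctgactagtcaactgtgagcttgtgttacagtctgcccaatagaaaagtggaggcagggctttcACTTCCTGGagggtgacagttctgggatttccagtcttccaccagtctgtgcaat
Slfn3, chr11:83191170-83191329, plus strand: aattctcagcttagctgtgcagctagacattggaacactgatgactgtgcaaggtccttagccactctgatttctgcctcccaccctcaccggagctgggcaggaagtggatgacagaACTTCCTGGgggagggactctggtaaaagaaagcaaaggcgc
Slfn4, chr11:83175026-83175185, plus strand: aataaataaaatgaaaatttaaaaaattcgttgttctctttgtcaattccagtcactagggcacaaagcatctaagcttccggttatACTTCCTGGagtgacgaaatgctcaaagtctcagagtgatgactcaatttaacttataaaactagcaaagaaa
Slfn8, chr11:83020811-83020970, minus strand: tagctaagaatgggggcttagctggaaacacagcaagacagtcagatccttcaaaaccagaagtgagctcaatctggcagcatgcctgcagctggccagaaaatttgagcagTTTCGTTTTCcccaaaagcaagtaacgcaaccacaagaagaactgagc
Slfn9, chr11:82991831-82991990, minus strand: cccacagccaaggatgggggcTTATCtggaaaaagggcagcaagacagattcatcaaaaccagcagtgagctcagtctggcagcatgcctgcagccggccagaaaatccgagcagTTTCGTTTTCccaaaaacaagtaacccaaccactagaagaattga

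Motifs were searched on both strands in the 250 bases before the start. The letters ACTTCCTGG, a word that holds the core bound by ETS factors, were found in Slfn1, Slfn2, Slfn3 and Slfn4, beginning 74, 55, 42 and 73 bases before the start, all on the gene's strand. The same word was in 0.701% of 32817 mouse promoters. It was chosen after these promoters had been seen, and the 4 genes are neighbours of similar sequence, so the match is a description of the family. The motif of interferon regulatory factors, searched as GAAA, any 2 bases and GAAA again, was found in Slfn5, Slfn8 and Slfn9, and in 2.97% of all promoters. In Slfn5 it begins 155 bases before the inner start, within the annotated gene. In Slfn8 and Slfn9 the match reads TTTCGTTTTC on the gene's strand and begins 48 and 45 bases before the start. Slfn8 has another entry, from an inner start, in which the same match begins 136 bases before it. GATAA, the core bound by GATA factors, was also chosen after the promoters had been seen. It was found as TTATC in Slfn14 and Slfn9, 73 and 139 bases before the start, and in 22.6% of all promoters. CCACACCC, a motif of KLF factors, and TTCNNNGAA, a motif of STAT factors, were in none of the 8 promoters and in 3.19% and 7.01% of all promoters. No matched motif overlapped another one in these windows.

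Near-identical stretches limit how well single members can be counted with reads of 50 bases. The transcript of Slfn14 had no stretch of 50 bases in common with another gene (0 of 3657 windows). The share was 0.606% for Slfn1 and 4.27% for Slfn2. It was 11.4% for Slfn4 and 23.7% for Slfn3, which share stretches with each other and with the pseudogene Gm11427. Slfn8 (15.03%), Slfn9 (11.9%) and Slfn10-ps (19.7%) share stretches among themselves. The Slfn9 transcript searched here had 5769 bases, whereas its deposited length was 3856, so its share may differ for the counted transcript. Slfn5 shared 11.8%, of which 7.88% of its windows were in the antisense gene Slfn5os, and reads of the pair cannot be told apart unless strand was used in counting. The expected counts were not whole in all 6 cultures for the other 8 members and in 2 of 6 cultures for Slfn14. The counts of Slfn14 are therefore the least open to mixing with other members, whereas those of Slfn3, Slfn4, Slfn8, Slfn9 and Slfn10-ps are uncertain to the extent that reads were divided among copies.

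Slfn14 was by far the most abundant member. Per transcript length it stood at 259, 256 and 269 FPKM in the DMSO cultures, ranking 213 to 224 from the top among the 14913 to 14951 genes listed there. It stood at 160, 157 and 158 FPKM in the NUP-17d cultures and ranked 363 to 376 among 15251 to 15332 genes. Slfn2 followed with 34.9 ± 1.06 FPKM in DMSO and 39.5 ± 2.07 FPKM in NUP-17d (SD, n = 3 in each group, here and below). Slfn3 (11.3 ± 0.867 FPKM) and Slfn5 (10.9 ± 1.05 FPKM) came next in DMSO, and their ranges overlapped. Slfn8 (5.15 ± 0.602 FPKM) and Slfn9 (4.23 ± 0.330 FPKM) formed the next pair, again with overlapping ranges. Slfn4 stood at 3.54 ± 0.203, Slfn1 at 2.76 ± 0.320 and Slfn10-ps at 0.673 ± 0.112 FPKM. The order of the 9 genes was the same in the NUP-17d cultures, where the ranges of the same 2 neighbouring pairs overlapped and all other neighbours stood apart. FPKM carries no correction for composition, so its levels are compared here between genes within a group and not between the groups.

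**Figure D1:**
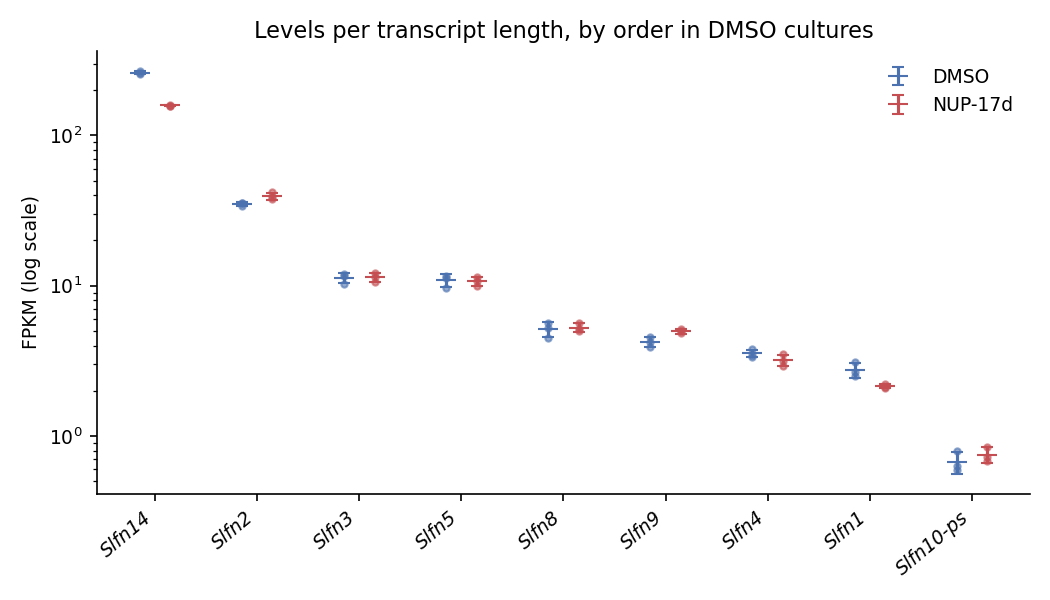
FPKM of each Schlafen member on a log axis, ordered by the mean in DMSO cultures. Points are the 3 cultures of each group, and horizontal marks with bars are the mean and SD. Slfn14 averaged 261 FPKM in DMSO and 158 FPKM in NUP-17d, and the next gene, Slfn2, averaged 34.9 and 39.5 FPKM.

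Slfn14 had the lowest log2 fold change of the members. Its expected counts were 19940, 19634 and 20479 in the DMSO cultures and 12077, 11873 and 11945 in the NUP-17d cultures. On the TMM scale this gave 1102, 1035 and 1100 CPM against 546, 532 and 548 CPM. Every NUP-17d culture lay far below every DMSO culture, on the raw counts as well as on the scaled values. The log2 fold change was -0.99 (SE 0.036), which is 50.2% of the DMSO level, and with library totals alone it was -0.73. It was the 83rd lowest value among the 12306 tested genes. Of the 237 genes averaging 10000 counts or more, 2 had a lower value. That limit lies under the 15991 counts that Slfn14 itself averaged. Both places rest on the contrast already known when the family was chosen, so they are a description and not support.

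Shares within a culture do not depend on how libraries are scaled. Slfn14 held 83.7%, 82.1% and 82.6% of all Schlafen counts in the DMSO cultures and 74.0%, 72.6% and 74.5% in the NUP-17d cultures, with no overlap. As a share of the family's summed FPKM it made up 78.1 ± 0.895% in DMSO and 67.0 ± 1.01% in NUP-17d. The family's total was 1303 ± 36.9 CPM in DMSO and 735 ± 2.29 CPM in NUP-17d. The other 8 members together stood at 224 ± 8.90 CPM and 193 ± 6.75 CPM, so most of the family's difference in reads lay in Slfn14.

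**Figure D2:**
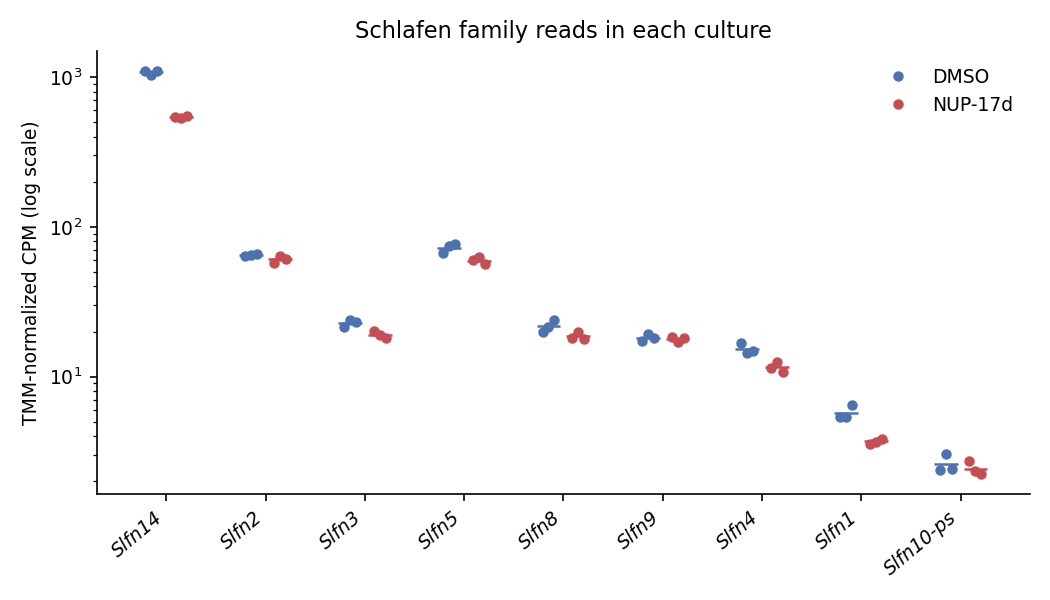
TMM-normalized CPM of each member in each culture on a log axis, with horizontal marks at the group means. Slfn14 reads 1035 to 1102 CPM in the 3 DMSO cultures and 532 to 548 CPM in the 3 NUP-17d cultures, while Slfn2, Slfn9 and Slfn10-ps differ little between the groups.

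The edgeR quasi-likelihood fit over all genes called 6 of the 9 members lower in NUP-17d (Slfn14, Slfn1, Slfn4, Slfn5, Slfn3 and Slfn8) and 0 higher, beside 18.9% of all 12306 tested genes called lower and 16.4% called higher. Because the members were chosen with this contrast known, nothing is read from the count. By library totals alone 2 members were called lower (Slfn14 and Slfn1), beside 5.34% of all tested genes, and 2 higher (Slfn2 and Slfn9), beside 68.7%. The cultures of the groups did not overlap, with NUP-17d lower, in 6 members (Slfn1, Slfn2, Slfn3, Slfn4, Slfn5 and Slfn14), beside 23.2% of all tested genes. The median log2 fold change of the family was -0.26, and all 9 members lay below the all-gene median of 0.014 (Slfn10-ps lay 0.0051 above it without DMSO culture 2). With library totals alone the family's median was 0.0041 and the all-gene median was 0.28. That scaling moved the members and the all-gene median nearly alike. That all 9 stayed below it is therefore no separate result.

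**Figure D3:**
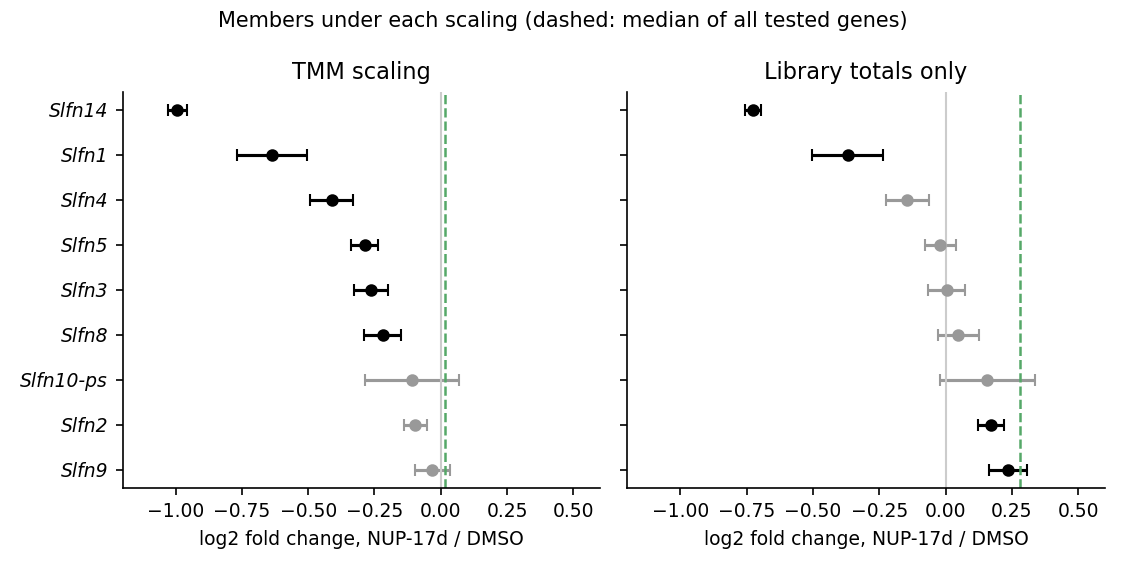
Log2 fold change of each member (NUP-17d over DMSO, points with SE bars) with TMM scaling on the left and with library totals only on the right. Black points passed an adjusted p of 0.05 in the edgeR fit, gray points did not, and the dashed line is the median of all tested genes. All 9 members lie left of the dashed line in both panels, because the change of scaling shifts members and median nearly alike. Slfn2, Slfn3, Slfn8, Slfn9 and Slfn10-ps lie right of 0 with library totals only.

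Among the short members, Slfn1 and Slfn2 differed. Slfn1, whose forced expression holds back T cell growth, read 5.36, 5.38 and 6.45 CPM in the DMSO cultures and 3.57, 3.63 and 3.85 CPM in the NUP-17d cultures. All 3 NUP-17d values lay below the DMSO values, and the log2 fold change was -0.64 (SE 0.13), or -0.37 with library totals alone. With 97.0 to 120 counts per DMSO culture it is among the least precisely measured members. Slfn2, which keeps T cells and monocytes quiescent and protects tRNA from cleavage, read 64.3, 64.6 and 65.4 CPM against 57.6, 63.5 and 60.7 CPM. These values did not overlap either, although the nearest ones were 64.3 and 63.5 CPM. The log2 fold change of Slfn2 was -0.096 (SE 0.043), which did not pass the threshold with TMM, and it was 0.17 with library totals alone.

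The intermediate members Slfn3 and Slfn4 lie next to each other and share reads. Slfn4, which rises in activated macrophages, read 16.8, 14.3 and 14.9 CPM in the DMSO cultures and 11.3, 12.5 and 10.8 CPM in the NUP-17d cultures. The groups did not overlap, and the log2 fold change was -0.41 (SE 0.080), or -0.14 with library totals alone. Slfn3, described in T cells and in differentiating intestinal epithelium, read 21.6, 23.8 and 23.2 CPM against 20.2, 18.9 and 18.1 CPM. Its groups stood apart by a small margin, with a log2 fold change of -0.26 (SE 0.063) that became 0.0041 with library totals alone.

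Among the long members other than Slfn14, Slfn5 had the highest level. Slfn5, a nuclear protein induced by type I interferon, read 66.7, 74.4 and 77.2 CPM in the DMSO cultures and 59.8, 62.9 and 56.2 CPM in the NUP-17d cultures. The groups did not overlap, and the log2 fold change was -0.29 (SE 0.050), or -0.021 with library totals alone. Slfn8 read 19.8, 21.5 and 23.7 CPM against 18.13, 19.997 and 17.74 CPM. The highest NUP-17d culture lay above the lowest DMSO culture, and the log2 fold change was -0.22 (SE 0.070) with TMM and 0.048 with library totals alone. The call for Slfn8 was lost without DMSO culture 3 (-0.15) and without NUP-17d culture 3 (-0.19).

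Slfn9 read 17.2, 19.2 and 18.1 CPM in the DMSO cultures and 18.31, 16.99 and 18.01 CPM in the NUP-17d cultures. These ranges overlapped, with a log2 fold change of -0.032 (SE 0.066), or 0.23 with library totals alone. Without DMSO culture 2 or NUP-17d culture 2 it was just above 0 and not called. Slfn10-ps, at 42.8 to 60.2 counts per culture, read 2.38, 3.06 and 2.42 CPM against 2.71, 2.33 and 2.25 CPM. Its ranges overlapped too, and its log2 fold change of -0.11 (SE 0.18), which was 0.16 with library totals alone, was smaller than its error.

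The balance among the 8 members other than Slfn14 again needs no scaling. A share can rise only because others fall, so the shares are not separate results. They have no counterpart over all genes, so nothing is read from how many overlapped. Slfn5 held 32.5 ± 1.16% of these counts in DMSO and 30.8 ± 0.758% in NUP-17d, and its ranges overlapped. Slfn2 held 29.0 ± 0.957% and 31.4 ± 1.18%, with every NUP-17d culture above every DMSO culture. Slfn1 held 2.55 ± 0.204% and 1.91 ± 0.135%, and Slfn4 held 6.88 ± 0.849% and 5.95 ± 0.237%, both without overlap and lower in NUP-17d. The nearest values of Slfn4 were 6.33% in DMSO and 6.21% in NUP-17d. The shares of Slfn3, Slfn8, Slfn9 and Slfn10-ps overlapped between the groups.

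Within the groups of members that share a promoter motif the log2 fold changes varied. The 4 genes with ACTTCCTGG ran from -0.64 (Slfn1) to -0.096 (Slfn2) on the log2 scale with TMM. The 3 genes with the interferon factor motif ran from -0.29 (Slfn5) to -0.032 (Slfn9). Of the pair with GATAA, Slfn14 stood at -0.99 and Slfn9 at -0.032.

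The genes that flank the cluster were mostly near the all-gene median. Of 12 flanking genes in the list, 8 were tested, and 2 were called lower and 0 higher with TMM. Their median log2 fold change was -0.043. With library totals alone it was 0.22, and 5 were called higher and 1 lower. The shares of all tested genes stand beside this and every later list count. With TMM 18.9% of all tested genes were called lower and 16.4% higher. With library totals alone 5.34% were called lower and 68.7% higher. Rffl, which encodes a ubiquitin ligase and lies beyond Slfn5, read 132, 125 and 125 CPM in the DMSO cultures and 80.3, 82.7 and 91.1 CPM in the NUP-17d cultures. It fell by 0.59 on the log2 scale (SE 0.043, adjusted p = 2.06e-11), and by 0.32 with library totals alone. Taf15, an RNA-binding protein gene on the other side, had a log2 fold change of -0.15 (SE 0.040, adjusted p = 0.00508) with TMM and of 0.12 with library totals alone. Ap2b1, an adaptor protein gene close to the start of Slfn14, had a value of -0.041 (SE 0.034) that was not called, and its ranges overlapped between the groups. Lig3 (0.047), Rad51d (0.070), Nle1 (-0.14) and Mmp28 (0.21) were not called. Fndc8, Unc45b, Rasl10b and Gas2l2 had fewer than 5 counts in every culture.

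**Figure D4:**
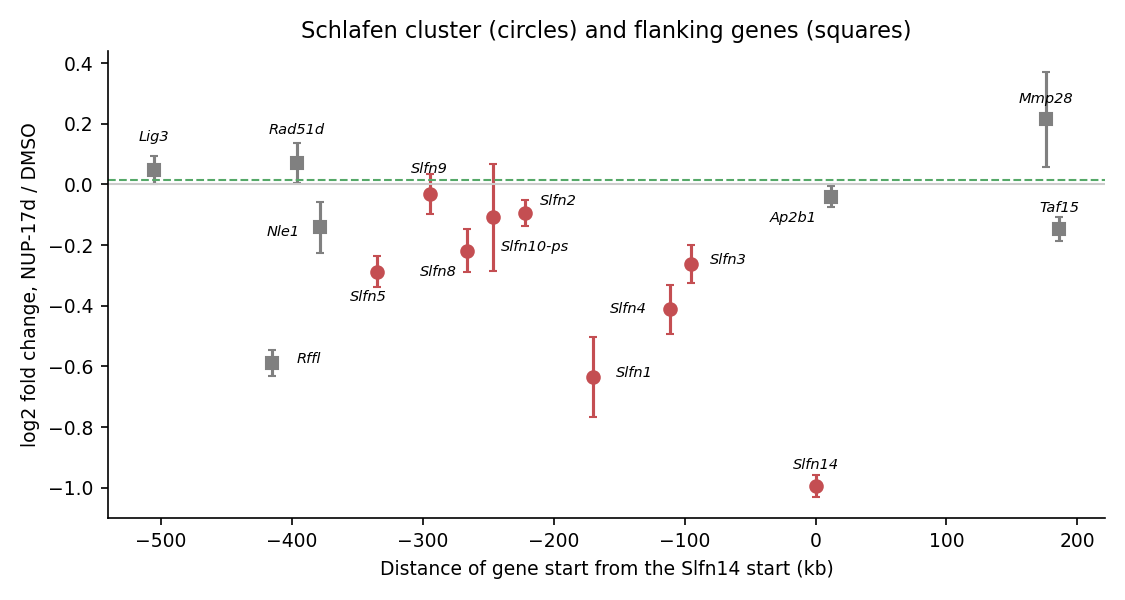
Log2 fold change (NUP-17d over DMSO, TMM, with SE bars) of the Schlafen members (circles) and the tested flanking genes named in the text (squares) against the distance of each gene's start from the start of Slfn14, in kb. The dashed line is the median of all tested genes, 0.014. Slfn14 lies at -0.99, while Ap2b1, close to it, lies near 0 with TMM (0.23 with library totals alone).

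The erythroid markers were lower together with Slfn14, by less than Slfn14 itself. All 12 markers, which include genes of heme synthesis, the red cell membrane and erythroid transcription factors, were called lower with TMM and 10 of 12 with library totals alone. Their median log2 fold change was -0.50, and their summed level was 24831 to 26651 CPM in the DMSO cultures and 15409 to 16303 CPM in the NUP-17d cultures. Alas2, the first enzyme of erythroid heme synthesis, changed by -0.76 (SE 0.040, adjusted p = 3.07e-14) and Epb42, a membrane skeleton protein gene, by -0.70 (SE 0.037, adjusted p = 3.23e-14). None of the 12 markers had a log2 fold change below that of Slfn14 (0 of 12). Within each culture Slfn14 counts equalled 4.13%, 4.17% and 4.40% of the summed erythroid marker counts with DMSO and 3.39%, 3.45% and 3.36% with NUP-17d, with no overlap. The part of the erythroid content of the cultures in the difference of Slfn14 was not tested.

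The 6 megakaryocyte markers called higher included Gp1ba (log2 fold change 0.26, SE 0.060, adjusted p = 0.00104) and Vwf (0.21, SE 0.050, adjusted p = 0.00125), whereas Gp6 was called lower (-0.69, SE 0.14, adjusted p = 0.000413). Of the 10 markers 6 were higher and 1 lower, with a median of 0.15, and their sum was 478 to 531 CPM in DMSO and 551 to 571 CPM in NUP-17d. With library totals alone 8 were called higher and 1 lower. The number higher was 4 with DESeq2 and without DMSO culture 1.

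The genes whose pattern over the 6 cultures lay nearest to that of Slfn14, by Euclidean distance of centred log2 CPM among 10650 genes, included Nt5c3 and Evi5. Nt5c3, the red cell pyrimidine nucleotidase, stood at a distance of 0.0609, with 606 to 636 CPM in DMSO and 312 to 324 CPM in NUP-17d and a log2 fold change of -0.97. Evi5, a GTPase-activating protein gene, stood at 0.0764 with a log2 fold change of -1.04. The 6 cultures form 2 groups, so a gene with a like group difference lies near Slfn14 by this measure.

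The genes of the interferon pathway, which induces several Schlafen genes, were called in both directions with TMM. So were all tested genes (16.4% higher and 18.9% lower). Of 22 receptor and signalling genes 4 were called higher and 3 lower with TMM (19 higher and 0 lower with library totals alone), with a median of -0.0026. The number called higher was 2 without DMSO culture 1, without NUP-17d culture 2 and with DESeq2. Ifnar2 read 262, 251 and 261 CPM in DMSO against 207, 214 and 205 CPM in NUP-17d, a log2 fold change of -0.31 (SE 0.035, adjusted p = 6.15e-08), or -0.041 with library totals alone. Rela, a subunit of NF-κB, was at 0.21 (SE 0.037, adjusted p = 5.19e-05) and Irf8, a myeloid interferon regulatory factor, at 0.20 (SE 0.035, adjusted p = 5.22e-05).

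Of 30 interferon-induced genes 7 were called higher and 12 lower with TMM (13 higher and 6 lower with library totals alone), with a median of -0.14. The number called lower was 7 without DMSO culture 3 and 6 with DESeq2. Ifit1, an RNA-binding antiviral protein gene, rose from 24.6, 24.8 and 28.9 CPM to 42.3, 42.0 and 39.4 CPM (log2 fold change 0.66, SE 0.058, adjusted p = 5.8e-10). Ifi27 rose by a like amount (0.66, SE 0.064, adjusted p = 3.6e-09). Rsad2, the antiviral enzyme viperin, was lower at 929, 888 and 917 CPM against 1206, 1147 and 1248 CPM (-0.40, SE 0.037, adjusted p = 2.01e-09), and it was also negative with library totals alone (-0.13). This list ran from -0.89 (Oas1g) to 0.66 (Ifi27). Every Schlafen member other than Slfn14 (-0.99) lay within that wide spread, among them Slfn5 at -0.29 and Slfn4 at -0.41. A link of the members to interferon was not tested.

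Genes that act beside the Schlafen nucleases in tRNA cleavage and at stalled ribosomes were called lower in 8 of 23 cases and higher in 1 with TMM (3 lower and 17 higher with library totals alone), with a median of -0.076. The number lower was 5 with DESeq2, and the number higher was 2 without DMSO culture 2 or NUP-17d culture 2. Ascc2, of the complex that clears collided ribosomes, was at -0.54 (SE 0.039, adjusted p = 1.65e-11). Gtpbp2, which rescues stalled ribosomes, was at -0.40 (SE 0.035, adjusted p = 5.75e-10). Both kept a negative sign with library totals alone (-0.27 and -0.13). Map3k20, the kinase ZAK that senses collided ribosomes, was the gene called higher (0.21, adjusted p = 0.000213).

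**Figure D5:**
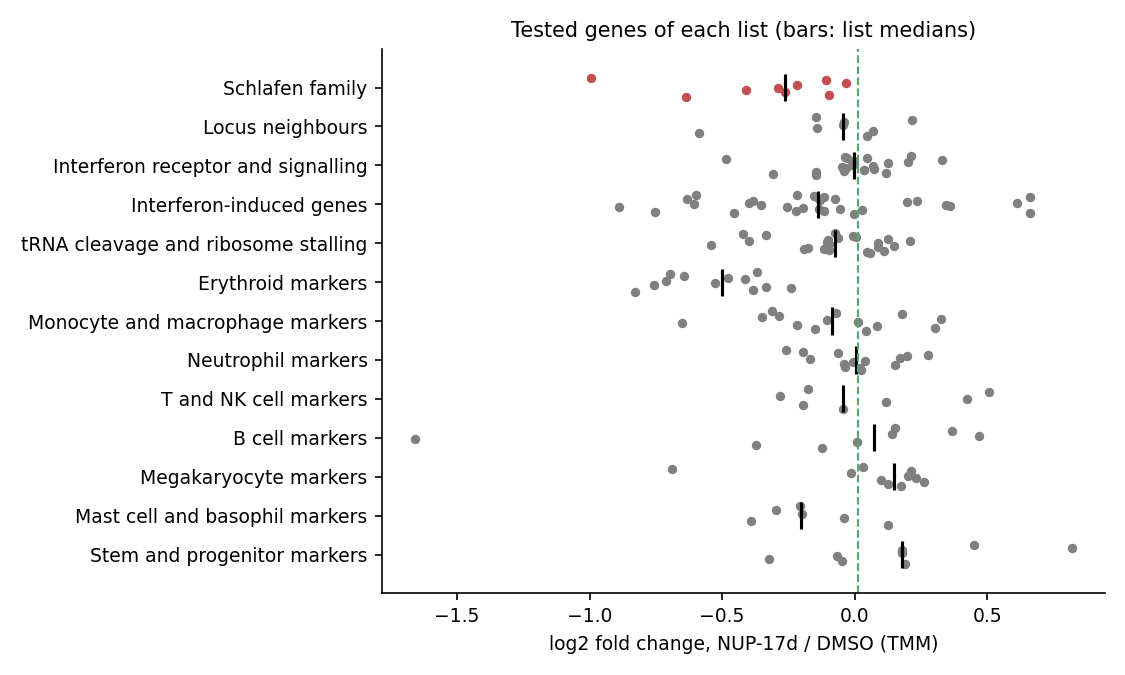
Log2 fold change (NUP-17d over DMSO, TMM) of every tested gene in each list, 1 point per gene, with a bar at each list's median and a dashed line at the all-gene median of 0.014. The Schlafen family has a median of -0.26 and the erythroid markers have a median of -0.50 (0.0041 and -0.23 with library totals only), and the interferon lists spread to both sides.

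The monocyte, macrophage and neutrophil markers were called in both directions with TMM, beside 16.4% of all tested genes higher and 18.9% lower. Of the 14 monocyte and macrophage markers 3 were called higher and 6 lower with TMM (7 higher and 0 lower with library totals alone), with a median of -0.087. The number lower was 2 without DMSO culture 2 or 3 and 1 without NUP-17d culture 1. The sum of the 14 was 4048 to 4376 CPM in DMSO and 4451 to 4832 CPM in NUP-17d. Most of it came from Lyz2, which averaged 2387 CPM in DMSO and 2700 CPM in NUP-17d. Cd68 (0.30, SE 0.044, adjusted p = 3.56e-06) and Lyz2 (0.18, SE 0.040, adjusted p = 0.000891) were higher, and Ccr2, a receptor of monocytes, was lower (-0.28, SE 0.042, adjusted p = 6.12e-06). Of the 14 neutrophil markers 4 were higher and 2 lower with TMM (11 and 0 with library totals alone), with a median of 0.0066 and a sum of 4438 to 4710 CPM in NUP-17d. Csf3r (0.28), Mmp8 (0.20) and Ngp (0.17) were among those higher. The T and NK cell markers summed to 58.9 to 64.9 CPM in NUP-17d, and of the 7 tested only Il7r was called (0.51, SE 0.055, adjusted p = 3.3e-08), with 1 gene called lower without DMSO culture 2, and 2 higher and 0 lower with library totals alone. The part of these cells in the values of Slfn1, Slfn2, Slfn3 and Slfn4 was not tested.

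The remaining lists were small. Of 8 tested B cell markers 2 were called lower (among them Cd79a, -0.37, adjusted p = 0.036) and 0 higher, and 1 was lower with DESeq2 or without DMSO culture 1, DMSO culture 3, NUP-17d culture 1 or NUP-17d culture 2. Of 6 tested mast cell and basophil markers 3 were lower (Prss34 -0.30, Mcpt8 -0.39 and Hdc -0.20, the last at 0.062 with library totals alone) and 1 higher, a call that was lost with DESeq2 and without DMSO culture 1, DMSO culture 2, NUP-17d culture 2 or NUP-17d culture 3. Of 8 tested stem and progenitor markers 4 were higher, among them Mycn (0.45) and Kit (0.19), and 1 was lower, Ly6a (-0.32), whereas 2 were higher with DESeq2. With library totals alone, 2 B cell markers were higher and 1 lower, 2 mast cell and basophil markers were higher and 0 lower, and 7 stem and progenitor markers were higher and 0 lower. Slfnl1, a related gene on another chromosome that is not a member, had at most 2 counts in any culture.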

How the data were processed

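RNA from 3 DMSO and 3 NUP-17d cultures was analysed. The authors deposited for each culture an expected count per gene, an estimate of its reads that need not be whole. Of the values above 0, 27.8% to 28.5% were not whole. For the members, a count within 0.005 of a whole number was taken as whole. The authors also gave an FPKM value, which divides the count by transcript length and library total. Per the labels the build was mm10. The aligner and the counting program are not given in the sources used here. A gene missing from a table was taken as 0.

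Expected counts were rounded and fitted in edgeR 4.0.16 (R 4.3.3) with filterByExpr, TMM scaling (factors 0.887 to 0.930 in DMSO and 1.08 to 1.11 in NUP-17d) and the quasi-likelihood test over 12306 genes, with Benjamini-Hochberg adjustment at 0.05. Alternatives were DESeq2 1.42.0, relative log expression factors, library totals only, no filter, hemoglobin genes removed, limma 3.58.1 on log2-transformed FPKM (pseudocount 1 or 0.1, mean FPKM of 1 or more), the culture number as a block, and each culture left out. The fits were tested on simulated counts with changes in both directions and no added difference in composition. That check does not bear on the choice of scaling. With 3 cultures per group an exact permutation test of a single value cannot go below 0.1.

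The members and gene lists were chosen with earlier results of these data known. Genes named were all 9 members, the flanking genes, the 3 genes with the lowest p among those called with a mean count of at least 20 in each other list, and the 3 genes nearest to Slfn14 in pattern with a mean count of at least 50. A few of these genes are left unreported here. Cd3d, Cd3e, Map3k20 and Slfnl1 were named after their values were seen. Promoters came from RefSeq (GRCm38.p6), and shared stretches of 50 bases were counted in the GENCODE transcripts.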

Additional observations from a re-analysis of the deposited data

How the results depend on the processing

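Slfn14 was called lower under every alternative, with log2 fold changes from -1.02 to -0.72, and so was Slfn1. With DESeq2, relative log expression factors, no filter, hemoglobin genes removed or the block, no member changed sign, and Slfn8 alone changed its call (DESeq2, -0.22, not called). Scaling by library totals, and limma with a pseudocount of 1 or 0.1 on FPKM, which is also scaled by library totals, moved all values upward together with the all-gene median (0.28 with totals, 0.24 with limma and a pseudocount of 1). In that order Slfn2 became 0.17, 0.17 and 0.17, Slfn3 0.0041, 0.0093 and 0.010, Slfn8 0.048, 0.032 and 0.038, and Slfn9 0.23, 0.20 and 0.23. Slfn4 (-0.14, -0.11 and -0.14) and Slfn5 (-0.021, -0.014 and -0.015) were no longer called. In each of these fits 2 members were called higher and 2 lower. Slfn10-ps, with a mean FPKM under 1, could not be given a value by limma.

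All genes called higher numbered 1162 with DESeq2, 8458 with totals and 7895 and 7880 with limma, against 2019. Those called lower numbered 657, 599 and 600 with totals and limma, against 2327. Over all lists together 93, 92 and 91 genes were then higher, against 31, and 22, 20 and 20 lower, against 52.

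Leaving out each culture in turn gave Slfn8 values of -0.28 to -0.15 and Slfn2 values of -0.13 to -0.060. The uncalled values of Slfn9 (-0.070 to 0.0090) and Slfn10-ps (-0.20 to 0.019) changed sign. Slfn2 was called lower without NUP-17d culture 2 (-0.13), and the number of members called lower was 5 to 7, beside 2035 to 2181 of all genes. The cause was not tested. The deviations of same-numbered cultures correlated at 0.034, -0.021 and -0.032, and those of differently numbered cultures at -0.055 to 0.083. No pairing by culture number was therefore visible. With so few cultures this cannot show whether same-numbered ones shared an origin, which the labels do not give. With the number as a block, Slfn14 stood at -0.99, 6 members were called lower and 0 higher, and 2121 genes were higher and 2422 lower. Slfn10-ps and Slfn1, with the fewest reads, had the largest errors.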
